A study of Mus musculus with 16 samples.

Results

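Endothelial cells of the mouse heart carrying the DKO label, meant to lack both Klf2 and Klf4, were compared with cells lacking Klf2 alone (K2KO), which asks what the loss of Klf4 adds to the loss of Klf2. The members of this comparison were the 4 DKO-labelled and the 4 K2KO libraries, chosen by genotype, which are 8 of the 16 libraries of the study. The remaining 8, which were 4 Cre controls and 4 knockouts of Klf4 alone (K4KO), were used to set the values in context and for 1 test of the difference between differences. In every group the animals were C57BL/6J mice of 8 to 10 weeks that had received tamoxifen, deletion was restricted to endothelial cells, and the cells were collected on day 6 with magnetic beads coated for CD31. Each library held the pooled cells of 2 mice. The promoter that drives the Cre, the exons that were removed and whether controls carried floxed alleles are matters that the sources used here do not state. Nothing in the sources says that the pools of a group were collected on separate days, so the p-values measure the spread between these pools.

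KLF2 and KLF4 are zinc finger transcription factors of the Krüppel-like family that bind CACCC elements in DNA. Laminar blood flow induces both through the MEKK3, MEK5, ERK5 and MEF2 pathway. In endothelium they are known for raising anticoagulant and vasodilator genes such as Thbd and Nos3 and for restraining inflammatory genes, and the 2 factors share many of their targets.

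RNA sequencing gave 32.4 to 51.0 M reads (megareads) per K2KO library. The DKO-labelled libraries held 25.3 to 29.3 M reads except library 4, with 106 M. Values are the deposited scaled counts (gene read counts divided by 1 factor per library), given in the order of libraries 2 to 5 of each group, and levels are mean ± SD over n = 4 libraries. Changes are log2 differences of value + 1 with their SE, and a gene was called when limma gave it an adjusted p below 0.05. The summed level of 35 genes of endothelial identity, among them Cdh5 and Pecam1, was 711364 to 780692 scaled counts in K2KO and 759874 to 801044 in the DKO-labelled group, so endothelial markers were abundant in both. K2KO library 2 stood apart. It had reads in 29670 genes where the other 3 K2KO libraries had 21727 to 23425, and in 27293 against 20690 to 21204 once every library was thinned to 21.1 M reads. Gm10800, a gene model on chromosome 2 named after its values were seen, took 4.13% of the scaled counts in that library, 7.01% in K4KO library 1, and at most 0.0697% in any other. The calls were therefore also made without K2KO library 2, and are given beside the main ones below. In a principal component analysis of 11235 genes the groups were parted on component 1, with 81.9% of the variance, while component 2 held 7.92%.

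The targeted genes were examined first. Klf2 (chromosome 8, 72319033 to 72321656, in the build GRCm38) read 3079.8, 3389, 3378 and 3571 in the K2KO libraries and 7318, 9379.9, 10990.0 and 8576 in the DKO-labelled libraries. All 4 DKO-labelled libraries thus lay above all 4 K2KO libraries, with means of 9066 ± 1538 and 3354 ± 203, and the log2 change was 1.42 ± 0.16, adjusted p = 1.19e-06 (limma). An exact permutation test, two-sided, gave p = 0.0286, which is the lowest value open to 2 groups of 4. Klf4 (chromosome 4, 55527143 to 55532466) read 11143, 11086, 12192 and 13121 in the K2KO libraries and 7994, 10119.6, 11829 and 7845 in the DKO-labelled libraries. The groups overlapped for Klf4, at 11886 ± 968 in K2KO and 9447 ± 1898 in the DKO-labelled libraries (-0.35 ± 0.15, adjusted p = 0.0762 by limma, exact permutation p = 0.0857). The Klf4 call depended on the fit, since limma gave an adjusted p of 0.00429 with quantile normalisation, 0.0346 with the 8 libraries alone, 0.0293 without control 3 and 0.0206 without DKO-labelled library 4. Klf4 was far from a call with libraries scaled to the same median (-0.07, adjusted p = 0.774 by limma). Without DKO-labelled library 2 or 5 the adjusted p was 0.204 or 0.227 (limma). In controls Klf2 averaged 7227 ± 2359 and Klf4 9691 ± 2466, and in K4KO they averaged 9237 ± 1266 and 5819 ± 705. The counts cover entire genes and cannot show a removed exon. Against controls the DKO-labelled libraries differed by 0.36 ± 0.16, adjusted p = 0.0881 for Klf2 and by -0.03 ± 0.15, adjusted p = 0.923 for Klf4 (limma), so neither transcript was called lower, and the group is named by its label throughout.

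Genes on the chromosome of Klf2 were set beside the labels, and they were picked because they were called in K2KO against control. Calr3, a testis-type calreticulin gene 105 kb from Klf2, read 130.1, 139.9, 114 and 145 in the K2KO libraries and 77.6, 95.1, 69.5 and 65.9 in the DKO-labelled libraries. Every library of both groups lay above the control mean of 14.8 ± 2.16, and the fall between the groups was -0.78 ± 0.25, adjusted p = 0.0174 by limma. That call was lost with quantile normalisation (adjusted p = 0.116), under scaling to the same median (0.131) and without DKO-labelled library 5 (0.0536). Fam32a, on the other side of Klf2, averaged 1341 ± 32.4 in K2KO and 1425 ± 81.7 in the DKO-labelled libraries (0.09 ± 0.07, adjusted p = 0.358, and 0.36 with an adjusted p of 0.00318 under scaling to the same median), against 1975 ± 133 in controls and 1905 ± 52.5 in K4KO. Mri1, a gene of methionine salvage 11.9 Mb away, stood at 97 ± 13.6 and 92 ± 14 (-0.08 ± 0.16, adjusted p = 0.753), against 235 ± 16.2 in controls. The 4 DKO-labelled libraries were thus placed with K2KO and below every control for Fam32a and Mri1. Mast1, a kinase gene 12.6 Mb away, went the other way, with 36, 43.7, 39.2 and 21.2 in the K2KO libraries and 5.54, 2.47, 3.66 and 7.44 in the DKO-labelled libraries, a fall of -2.67 ± 0.52, adjusted p = 4.27e-04 to the control level of 4.56 ± 3.47. Man2b1, 12.8 Mb away, lay in between. It averaged 2092 ± 150 in controls, 1289 ± 87.7 in K2KO and 1576 ± 121 in the DKO-labelled libraries (0.29 ± 0.10, adjusted p = 0.0366 by limma). A level near that of K2KO was not particular to this chromosome. Gm4951 on chromosome 18 averaged 244 ± 92.2 in controls, 47.9 ± 54.7 in K2KO and 25.5 ± 13.1 in the DKO-labelled libraries (-0.42 ± 0.50, adjusted p = 0.561 by limma). Tdpx-ps1 on chromosome 1 averaged 0, 21.6 ± 2.39 and 30.9 ± 4.39 in that order. Others, such as Icam1 on chromosome 9, were called between the groups. On the chromosome of Klf4, at -13.8 Mb from it, lies Ccl27a, a chemokine gene with near-identical copies among which reads may be split. It read 23.1, 30.1, 31.1 and 25.9 in the K2KO libraries and 2.22, 0, 0.305 and 2.12 in the DKO-labelled libraries. Its level was 26 ± 9.2 in controls and 3.35 ± 1.86 in K4KO. With 152 reads against 5 over the groups, the scaled ratio of K2KO to DKO-labelled was 33.3 (exact 95% interval 13.9 to 104, counting error only). Ccl27a was 1 of 5 genes on chromosome 4 called in K4KO against control, and the other 4, named after their values were seen, had lower means in the DKO-labelled libraries than in K4KO. They start at -22.7 Mb (Ankrd6), 6.98 Mb (Alad), 37.8 Mb (Tusc1) and -14.0 Mb (AI464131) from Klf4. Ankrd6 averaged 109 ± 18.8 in controls, 106 ± 3.09 in K2KO, 295 ± 15.4 in K4KO and 103 ± 17.8 in the DKO-labelled libraries (-0.05 ± 0.14, adjusted p = 0.817 between the DKO-labelled and K2KO libraries by limma). Alad, of haem synthesis, averaged 304 ± 37.4 in controls, 261 ± 33.7 in K2KO, 633 ± 136 in K4KO and 337 ± 91.5 in the DKO-labelled libraries (0.33 ± 0.18, adjusted p = 0.164). Tusc1 averaged 62.7 ± 6.22 in controls, 68.7 ± 10.5 in K2KO, 128 ± 28.2 in K4KO and 89.1 ± 16.3 in the DKO-labelled libraries (0.36 ± 0.18, adjusted p = 0.13), and AI464131 59.3 ± 3.64 in controls, 64 ± 11.9 in K2KO, 156 ± 22.8 in K4KO and 46.2 ± 8.6 in the DKO-labelled libraries (-0.46 ± 0.18, adjusted p = 0.0477). These 4 genes were taken because they were called higher in K4KO than in control, so a lower mean in another group than in K4KO is partly built in. Of them AI464131 was called lower between the DKO-labelled and K2KO libraries.

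**Figure D1:**
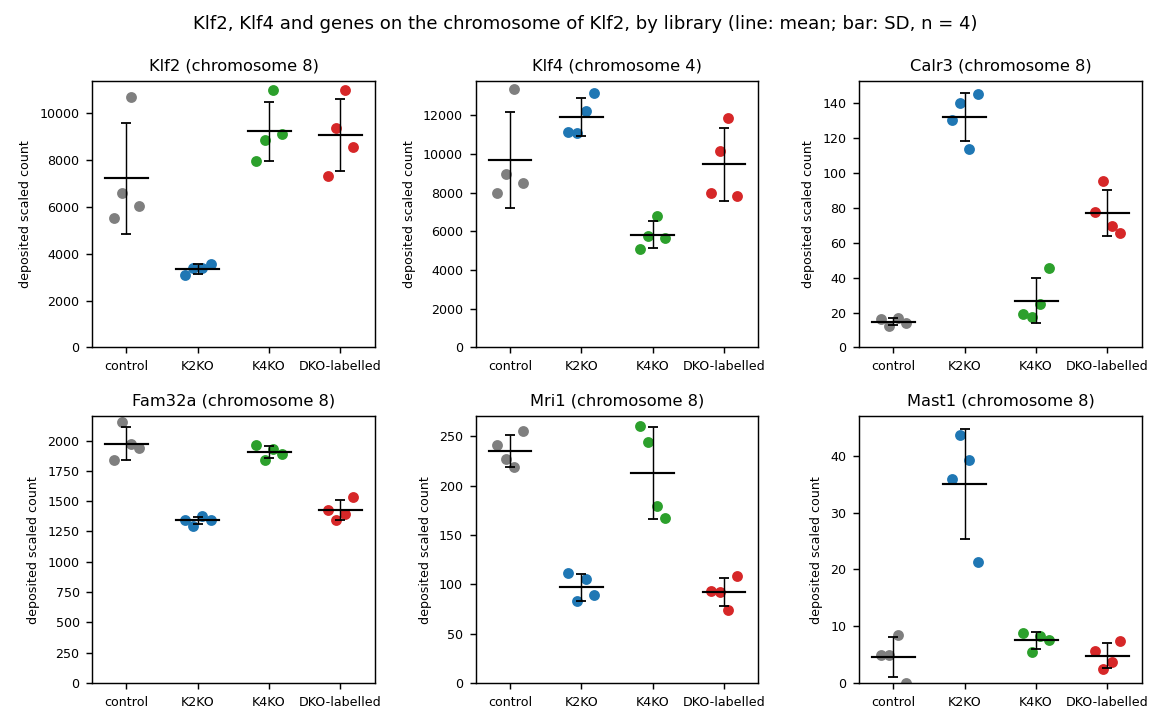
Scaled counts of Klf2, Klf4 and 4 genes on the chromosome of Klf2 in all 16 libraries, each point 1 library, with the mean as a line and the SD as a bar (n = 4 per group). Klf2 was low in K2KO alone, while Fam32a and Mri1 were low in both K2KO and the DKO-labelled libraries.

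Within 1 Mb of Klf2, 55 other genes were tested, of which 11 rose and 12 fell between the groups (41.8%), and within 1 Mb of Klf4 3 rose and 1 fell of 9 (44.4%). Over all genes the share called was 36.6%, so these neighbourhoods were close to it.

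Of 23816 genes tested, 8717 were called (36.6%), with 4210 higher (17.7%) and 4507 lower (18.9%) in the DKO-labelled libraries. With a change of at least 2-fold asked as well, 974 were higher (4.09%) and 2350 lower (9.87%). All 4 DKO-labelled libraries lay above all 4 K2KO libraries for 4540 genes (19.1%) and below them for 4781 (20.1%). The median log2 change of all genes tested was -0.11, and the median SE was 0.233. Setting every library to an equal median (same-median scaling) put that median change at 0.12, and 70.2% of calls were then rises where 48.3% were before, so a direction close to 0 depends on the scaling. Rises and falls differed by level. Among 5436 genes whose higher group mean was over 1000 scaled counts 2279 rose and 977 fell, whereas among 4165 genes between 10 and 100 there were 340 rises and 1367 falls. Under 10 scaled counts 63 rose and 522 fell of 8063. Without K2KO library 2, 3775 genes were higher and 3854 lower over all levels, and under 10 scaled counts there were 75 rises and 313 falls. Protein-coding genes split into 4053 higher and 3634 lower of 16874. Long intergenic noncoding RNAs fell far more often than they rose, with 31 higher and 259 lower of 1192, as did antisense transcripts, with 13 and 147 of 970. These classes were not matched by level to other genes, and genes at low levels mostly fell, as given above. Nor were the classes counted without K2KO library 2. For antisense transcripts, reads of the partner gene cannot be told apart, since the use of strand in counting is not given.

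**Figure D2:**
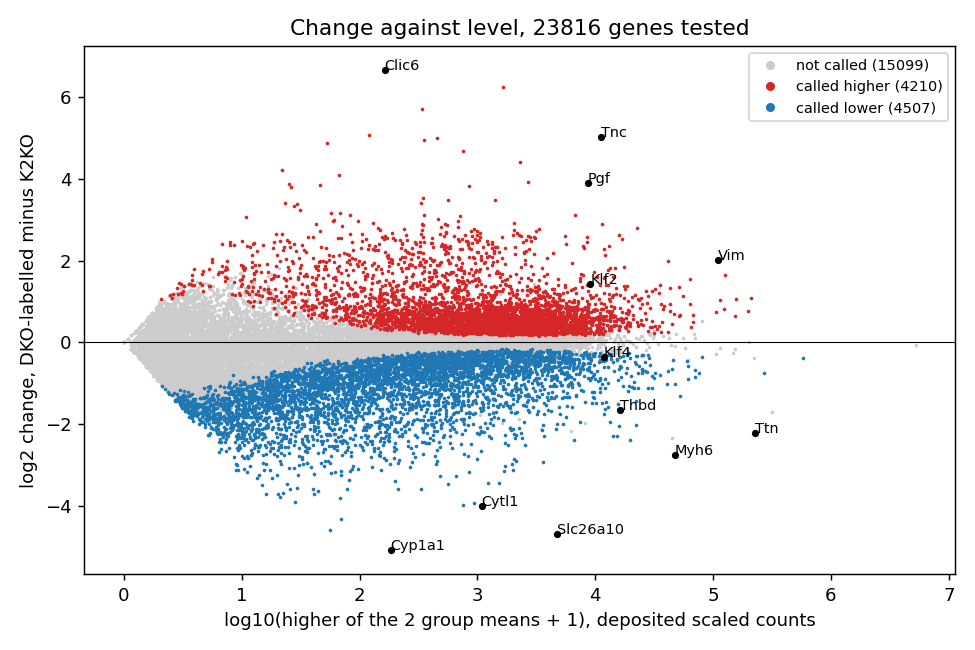
Log2 change of each of 23816 genes (DKO-labelled minus K2KO) against the log10 of the higher group mean + 1. Calls at low levels were mostly lower and calls at high levels mostly higher in the DKO-labelled libraries.

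The DKO-labelled libraries differed in the size of the change. Of the 2618 genes called lower with a higher group mean of at least 100, library 2 was the nearest to K2KO in 56.5% and library 4 the farthest from it in 44.2%. Their median log2 difference from the K2KO mean was -0.62 in library 2, -0.76 in library 3, -0.78 in library 4 and -0.75 in library 5. For the 3807 genes called higher at that level the medians were 0.50, 0.56, 0.56 and 0.59 in libraries 2 to 5.

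Promoters are shown for 4 genes because Krüppel-like factors bind CACCC: Cyp1a1 and Cytl1, which were among the largest falls, Tnc, which was among the largest rises, and Klf2 itself. Each runs 5′ to 3′ on the gene's strand from 250 bases before to 50 bases after the start (RefSeq, GRCm38.p6), with CACCC and its reverse complement GGGTG in capitals.
Cyp1a1 (chr9:57697363-57697662, + strand): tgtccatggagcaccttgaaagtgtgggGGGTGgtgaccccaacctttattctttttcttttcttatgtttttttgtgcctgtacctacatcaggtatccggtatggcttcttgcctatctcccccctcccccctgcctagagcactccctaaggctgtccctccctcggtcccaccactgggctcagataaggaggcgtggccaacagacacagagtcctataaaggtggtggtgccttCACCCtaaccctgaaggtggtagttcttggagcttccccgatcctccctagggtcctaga
Cytl1 (chr5:37735269-37735568, + strand): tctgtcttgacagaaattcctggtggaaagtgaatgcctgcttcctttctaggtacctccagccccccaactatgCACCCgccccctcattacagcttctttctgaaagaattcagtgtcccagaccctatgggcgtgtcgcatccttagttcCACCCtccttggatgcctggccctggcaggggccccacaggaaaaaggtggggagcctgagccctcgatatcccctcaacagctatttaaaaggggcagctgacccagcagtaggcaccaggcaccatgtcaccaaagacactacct
Tnc (chr4:64046966-64047265, - strand): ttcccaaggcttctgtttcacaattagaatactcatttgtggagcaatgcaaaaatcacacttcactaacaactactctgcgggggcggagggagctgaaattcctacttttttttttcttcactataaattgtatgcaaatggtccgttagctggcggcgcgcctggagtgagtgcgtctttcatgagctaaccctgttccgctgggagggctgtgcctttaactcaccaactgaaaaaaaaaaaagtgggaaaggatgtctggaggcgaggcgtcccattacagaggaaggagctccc
Klf2 (chr8:72318812-72319111, + strand): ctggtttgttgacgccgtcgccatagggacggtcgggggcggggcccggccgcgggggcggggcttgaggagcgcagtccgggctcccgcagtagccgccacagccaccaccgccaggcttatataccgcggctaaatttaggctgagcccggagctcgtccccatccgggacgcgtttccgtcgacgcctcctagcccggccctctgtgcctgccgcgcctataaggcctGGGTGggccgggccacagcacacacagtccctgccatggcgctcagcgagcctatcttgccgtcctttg
The motif stood at 2 places in the Cyp1a1 window, 2 in that of Cytl1, 1 in that of Klf2 and 0 in that of Tnc. Of the 9 named rises described next, 4 had a promoter in the table and 3 of these held the motif. Tnc was the single one without it. Of the 10 named falls 10 had a promoter and 7 held it. On either strand it was found in 63.55% of 18231 promoters of 14449 genes tested, with 67.99% of 3990 promoters of genes called lower and 60.4% of 4098 promoters of genes called higher. Among genes changed at least 2-fold these shares were 69.8% and 56.8%, at the same mean GC content of 58.25% in both. The longer motif CCACACCC, which contains CACCC, was in 3.81% of promoters of genes called lower and 3.66% of those called higher, and in 3.83% of all tested. A match is a run of letters, not a bound site, and promoters of neighbouring starts share sequence, so no test was made.

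Several of the largest rises were of genes with few reads in K2KO. Clic6, an intracellular chloride channel gene, had 1258 reads in the DKO-labelled group and 2 in K2KO. The ratio after scaling was 575 (exact 95% interval 159 to 4751, counting error only). Disp2, of the family that releases Hedgehog ligands, read 13.7, 7.08, 2.71 and 2.77 in the K2KO libraries and 237, 362, 406 and 352 in the DKO-labelled libraries (5.71 ± 0.41, adjusted p = 7.21e-09 by limma). Arg1, arginase 1, which takes arginine from nitric oxide synthases, had 16 reads against 680, a scaled ratio of 38.8 (23.7 to 68.3). The groups overlapped in none of these, which was a condition for naming a rise or fall here. Gap43, a growth cone gene, went from 12.7 ± 2.98 to 454 ± 174, Tnfrsf9, the costimulatory receptor CD137, from 10.4 ± 3.18 to 354 ± 90.2 (4.96 ± 0.36), and Sh2d5, an SH2 domain adaptor, from 28 ± 6.24 to 750.4 ± 172 (4.69 ± 0.52). Tmem252 rose from 165 ± 9.43 to 2706 ± 1158 (3.92 ± 0.29). Tnc (chromosome 4, 63959785 to 64047015), which encodes the matrix glycoprotein tenascin-C, was the largest of these in level. It read 350.1, 282, 345 and 371 in the K2KO libraries and 9339.6, 11159, 12952 and 10861 in the DKO-labelled libraries, a rise of 5.03 ± 0.12, adjusted p = 1.41e-15 by limma. Inhbb, the beta B subunit of activins and inhibin B, read 94.2, 103, 129.9 and 73.9 in the K2KO libraries and 1101, 3145, 2903 and 1963 in the DKO-labelled libraries (4.41 ± 0.26, adjusted p = 8.24e-10), with library 2 the lowest of the DKO-labelled group for all 9 of these genes. None of the 9 was called in K2KO against control.

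Cyp1a1 (chromosome 9, 57697613 to 57703822), a monooxygenase gene switched on by the aryl hydrocarbon receptor, showed the largest fall among genes whose groups did not overlap, with 127, 215, 194 and 196 in the K2KO libraries and 12.2, 2.47, 4.57 and 2.12 in the DKO-labelled libraries (-5.09 ± 0.40, adjusted p = 2.16e-08 by limma). Slc26a10, of the SLC26 anion transporter family, read 4825, 4503, 5256 and 4421 in the K2KO libraries and 695, 167, 31.1 and 312 in the DKO-labelled libraries (-4.68 ± 0.56, adjusted p = 2.30e-06). Its DKO-labelled libraries spread from 31.1 to 695, all below every K2KO library. The secreted protein gene Cytl1 fell from 1086 ± 234 to 91.6 ± 89.5 (-4.004 ± 0.41), Ptprr, a phosphatase that acts on MAP kinases, from 754 ± 123 to 62.9 ± 54.1 (-3.99 ± 0.41), and Clmn, encoding calmin, from 926 ± 59.3 to 71.8 ± 48.7 (-3.93 ± 0.34). Cytl1 is also 1 of the 12 endocardial markers, whose summed level was 34353 to 45860 in K2KO and 20995 to 30299 in the DKO-labelled libraries. The part of endocardial cells in its fall was not tested. Tcf23, a helix-loop-helix factor, fell from 329.6 ± 122 to 25.8 ± 5.83 (-3.58 ± 0.26), the carboxylesterase Ces2e from 561 ± 61 to 63.1 ± 46.8 (-3.46 ± 0.35), and Prrt4 from 199 ± 22.4 to 29.7 ± 30.4 (-3.39 ± 0.55). Ucp3, a mitochondrial carrier of striated muscle, and Mhrt, a noncoding RNA transcribed antisense at Myh7 in heart muscle cells, fell from 212 ± 83.9 to 15.6 ± 2.1 (-3.60 ± 0.34) and from 1534 ± 395 to 160.0 ± 88.6 (-3.43 ± 0.42). Markers of cardiomyocytes moved with these last genes. Of 24 such markers 20 fell and 1 rose, their summed level was 269389 to 421529.6 in K2KO and 64239.8 to 102083 in the DKO-labelled libraries, and none of the 24 was at 0 reads. Their part in the falls of Ucp3 and Mhrt was not tested. In bulk samples fewer cells of a type and less RNA per cell cannot be told apart.

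**Figure D3:**
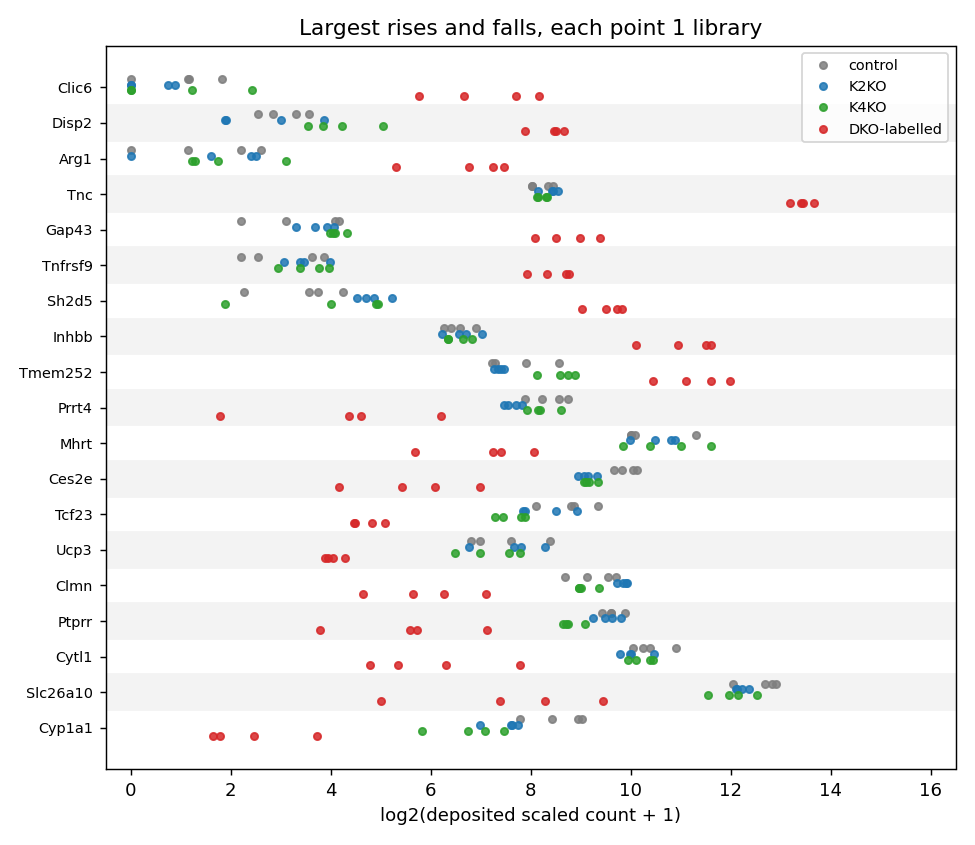
Log2(scaled count + 1) of the 9 largest rises and 10 largest falls in all 16 libraries, each point 1 library, coloured by group. The 4 DKO-labelled libraries lie apart from the K2KO libraries for each gene, which was a condition of the choice. The K2KO libraries lie among or near those of controls and K4KO.

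In absolute level, among called genes whose groups did not overlap, the 6 largest rises were of Col4a1, Fabp4, Sparc, Vim, Cd93 and Col4a2. Col4a1 and Col4a2, the collagen IV chains that are transcribed from a shared promoter, rose from 98551 ± 9520.4 to 209469.6 ± 34016 (1.08 ± 0.13) and from 55705 ± 4617 to 115210.3 ± 19536 (1.04 ± 0.13). Sparc, a matricellular glycoprotein, read 40971, 38049, 35454 and 44867 in the K2KO libraries and 109366, 132173, 137323 and 121825 in the DKO-labelled libraries (1.65 ± 0.11, adjusted p = 2.61e-09 by limma), and Vim, the intermediate filament vimentin, 27043, 24144, 28089 and 28470.3 in the K2KO libraries and 94272, 111238, 125288 and 109034 in the DKO-labelled libraries (2.02 ± 0.11, adjusted p = 2.59e-10). Both groups were tight for Vim, which stood above every K2KO value by a wide margin in each DKO-labelled library. Cd93, an endothelial transmembrane lectin-like receptor, rose from 75692 ± 5526 to 157196 ± 8204 (1.06 ± 0.12), and Fabp4, the fatty acid binding protein of capillary endothelium, from 114402 ± 10542 to 197067 ± 44449 (0.76 ± 0.15). The largest falls in level were of the sarcomere genes Ttn (from 226294 ± 44928 to 49287 ± 11564, -2.21 ± 0.28) and Myh6 (from 47474 ± 9971 to 7097 ± 2023, -2.76 ± 0.23), of Malat1, a nuclear noncoding RNA (from 271159 ± 25879 to 162854 ± 17136, -0.74 ± 0.22), and of mt-Rnr1, the mitochondrial 12S ribosomal RNA (from 582904 ± 27053 to 446477 ± 15642, -0.38 ± 0.15, adjusted p = 0.0493). The Malat1 call was lost under scaling to the same median (-0.46, adjusted p = 0.147 by limma). The mt-Rnr1 call was lost under most alternatives and its sign turned with quantile normalisation (0.26). Podxl, the sialomucin podocalyxin of the endothelial surface, read 55594, 50843, 49184 and 55287 in the K2KO libraries and 27958, 18869.8, 15982 and 23442 in the DKO-labelled libraries (-1.32 ± 0.14, adjusted p = 5.11e-07). Rgs5, a marker of pericytes, fell from 76549 ± 7364 to 45645 ± 3935 (-0.74 ± 0.12), with 9 of 16 mural cell markers lower and 1 higher.

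Cell cycle genes rose together. Of 30 genes of mitosis 30 were called higher and 0 lower (17.7% and 18.9% over all genes), and their median log2 change was 2.47, against -0.11 over all genes. The same shares stand beside every list count below. They differed by level, with 2279 rises and 977 falls among 5436 genes over 1000 scaled counts. Cdk1, the kinase that drives entry into mitosis, read 242, 241, 292 and 283 in the K2KO libraries and 1953, 2049, 1573 and 2565 in the DKO-labelled libraries (2.92 ± 0.31, adjusted p = 5.83e-07 by limma). Ube2c and Cdc20, which serve the anaphase-promoting complex, rose from 94.9 ± 13.5 to 681 ± 134 (2.82 ± 0.27) and from 255 ± 25.3 to 887 ± 131 (1.79 ± 0.19), and the chromosome kinesin Kif4 from 324 ± 23.9 to 1535 ± 356 (2.21 ± 0.24). In DNA replication and S phase 29 of the 30 members tested rose and 0 fell, with a median of 1.43. Tyms, thymidylate synthase, went from 335 ± 13.5 to 1204 ± 208 (1.83 ± 0.14), Lig1, DNA ligase 1, from 309.6 ± 19.9 to 894 ± 147 (1.51 ± 0.12), the flap nuclease Fen1 from 261 ± 22.4 to 691 ± 125 (1.39 ± 0.13), and the helicase subunit gene Mcm6 changed by 1.08 ± 0.10. For Cdk1, Ube2c, Cdc20, Kif4, Tyms, Lig1, Fen1 and Mcm6, library 4 was the lowest and library 5 the highest of the DKO-labelled group. Among cell cycle inhibitors and G1 cyclins 7 of the 15 members tested rose and 2 fell (median 0.27). Cdkn1c, the imprinted inhibitor p57, read 2449, 2461, 2182 and 2506 in the K2KO libraries and 641, 401, 463 and 408 in the DKO-labelled libraries (-2.35 ± 0.15, adjusted p = 1.85e-09), below every K2KO library, while the inhibitor Cdkn2c rose from 300.3 ± 17.6 to 853 ± 178 (1.48 ± 0.15) and the kinase Cdk6 from 500.4 ± 47.1 to 1122 ± 217 (1.15 ± 0.14). Mest, another imprinted gene, rose from 3291 ± 411 to 22699 ± 1556 (2.79 ± 0.17), and of 24 genes of imprinted growth control 8 rose and 6 fell.

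Genes of sprouting vessels and their basement membrane were mostly higher. Of tip cell and sprouting genes 19 of the 30 members tested rose and 6 fell (median 0.50), against 17.7% and 18.9% over all genes. Apln, a peptide ligand of tip cells, read 2891, 2285, 2059.8 and 3053 in the K2KO libraries and 15054, 14482, 16007 and 17496 in the DKO-labelled libraries (2.63 ± 0.17, adjusted p = 2.57e-09 by limma), and Pgf, a VEGF family ligand, 538, 511, 593 and 514 in the K2KO libraries and 4507, 9741, 13425 and 6951 in the DKO-labelled libraries (3.89 ± 0.23, adjusted p = 9.62e-10). Both lay above K2KO in every library, while Pgf varied more between DKO-labelled libraries. Plau, the urokinase gene, rose from 623 ± 65.9 to 2536 ± 134 (2.03 ± 0.12). In basement membrane and integrins 15 of the 23 members tested rose and 4 fell (median 1.08), with Nid1 and Nid2, which crosslink laminin and collagen IV, at 1.30 ± 0.08 and 1.41 ± 0.10, Lamb1, a laminin chain, at 1.39 ± 0.09, and Itga9, an integrin subunit that binds tenascin-C, at 1.64 ± 0.11. For matrix and mesenchymal genes 15 of the 32 members tested rose and 5 fell (median 0.45). Mmp14, a membrane collagenase, read 758, 679, 867 and 729 in the K2KO libraries and 4798, 7316, 8646 and 6014 in the DKO-labelled libraries (3.11 ± 0.13, adjusted p = 1.24e-11), and Loxl2, which crosslinks collagen, rose from 530.3 ± 40.3 to 2577 ± 642 (2.25 ± 0.14). Of 16 fibroblast markers 8 fell and 3 rose, with a summed level of 18349 to 26633 in K2KO and 14926 to 24581 in the DKO-labelled libraries. Proteases and their inhibitors went both ways, with 8 of 22 higher and 4 lower (6 and 6 with quantile normalisation), Timp1 rising from 31.1 ± 8.7 to 334 ± 80.1 (3.41 ± 0.32), and Adamtsl4 and Adamts10 falling (-1.87 ± 0.20 and -1.09 ± 0.15).

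Receptors and ligands of the angiopoietin and VEGF systems moved in both directions. Of the 16 members tested 4 rose and 10 fell (median -0.62), against 17.7% and 18.9% over all genes. Angpt2, the TIE2 ligand that destabilises vessels, read 679, 659, 566 and 833 in the K2KO libraries and 2479, 2517, 2829 and 2403 in the DKO-labelled libraries (1.91 ± 0.13, adjusted p = 2.84e-09 by limma). Its receptor Tek read 21092, 21334, 20209 and 23170.0 in the K2KO libraries and 12738, 10101, 9702 and 11218 in the DKO-labelled libraries (-0.98 ± 0.10, adjusted p = 2.56e-07). All 4 DKO-labelled libraries thus lay above every K2KO library for Angpt2 and below every one for Tek. Vegfc, a ligand of VEGFR3, fell from 2584 ± 186 to 903 ± 275 (-1.57 ± 0.16), and the VEGF receptors Kdr and Flt1 fell by smaller amounts (-0.67 ± 0.11 and -0.43 ± 0.10). The Flt1 call was lost under scaling to the same median (-0.15, adjusted p = 0.454 by limma). Among junction and permeability genes 13 of the 35 members tested rose and 8 fell, with a median of 0.09 that turned to -0.04 under quantile normalisation. Jam2, a tight junction receptor, read 21014, 23763, 20897 and 23590.0 in the K2KO libraries and 8126, 5252, 3912 and 5532 in the DKO-labelled libraries (-2.01 ± 0.15, adjusted p = 8.85e-09) and Pkp4, a plakophilin relative, 8077, 9961, 11362 and 9416 in the K2KO libraries and 3194, 4161, 4795 and 3049 in the DKO-labelled libraries (-1.37 ± 0.15, adjusted p = 1.03e-06), both below every K2KO library. The adherens junction cadherin Cdh5 rose from 63459 ± 3115 to 106189 ± 10607 (0.74 ± 0.10), the claudin Cldn5 from 4979.9 ± 547 to 8552 ± 3057 (0.71 ± 0.18), and Pvrl2, a nectin, from 660.3 ± 82.4 to 2114 ± 332 (1.67 ± 0.16). Of 35 endothelial identity genes 12 rose and 13 fell, whereas 15 rose and 7 fell under scaling to the same median. They include Ecscr, a regulator of endothelial motility, which rose from 3989 ± 221 to 6903 ± 299 (0.79 ± 0.08), and Podxl and Tek, which fell.

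Of 35 genes known as targets of KLF2 or KLF4 in endothelium, 13 rose and 12 fell (12 and 15 with quantile normalisation), against 17.7% and 18.9% over all genes. Their median of -0.07 became 0.21 when libraries were scaled to the same median. Thbd (thrombomodulin, the receptor through which thrombin activates protein C; chromosome 2, 148404466 to 148408188) read 16241, 16057, 15341 and 17313 in the K2KO libraries and 7197, 4512, 4338 and 5144 in the DKO-labelled libraries (-1.64 ± 0.14, adjusted p = 6.52e-08 by limma). It averaged 21015 ± 3023 in controls, 16238 ± 815 in K2KO and 19141 ± 3022 in K4KO. Nos3, endothelial nitric oxide synthase, was 9269.7 ± 1001 and 7158 ± 607 (-0.37 ± 0.16, adjusted p = 0.0803 by limma), which missed the threshold. It was called lower with quantile normalisation (-0.54, adjusted p = 0.0104 by limma) and by edgeR (adjusted p = 0.0429). So it was by limma with the 8 libraries alone (adjusted p = 0.00454), without control 4 (0.0434) and without K4KO library 4 (0.0212). In coagulation and fibrinolysis as a whole 15 of the 31 members tested rose and 8 fell (median 0.38). Procr, the endothelial protein C receptor, rose from 368 ± 29.7 to 969 ± 169 (1.38 ± 0.11) while its partner Thbd fell, the tissue plasminogen activator gene Plat rose from 4412 ± 316 to 14038 ± 4868 (1.60 ± 0.18), and Entpd1, an ectonucleotidase that limits platelet activation, fell from 5439 ± 346 to 2173 ± 433 (-1.34 ± 0.12).

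In the vasomotor and nitric oxide list 8 of the 33 members tested rose and 9 fell, against 17.7% and 18.9% over all genes. The median of -0.18 turned to 0.10 under scaling to the same median, where 13 rose and 5 fell. Ass1, which supplies arginine for nitric oxide synthesis, fell from 152 ± 19 to 38.4 ± 10.9 (-1.99 ± 0.28). Gucy1a3 and Gucy1b3, the subunits of the nitric oxide receptor guanylyl cyclase, fell from 5932 ± 272 to 2370.4 ± 333 (-1.33 ± 0.12) and from 2605 ± 36.7 to 1447 ± 136 (-0.85 ± 0.10). These subunits are also abundant in pericytes and smooth muscle, whose markers had a summed level of 131849 to 148646 in K2KO and 85316 to 104335 in the DKO-labelled libraries, and the part of such cells was not tested. Kcnj2, an inward rectifier potassium channel, rose from 1640.5 ± 137 to 6299.6 ± 585 (1.94 ± 0.13), Kcnn3, the small-conductance channel SK3, fell from 140.3 ± 9.5 to 49 ± 14.7 (-1.54 ± 0.20), and the vasoconstrictor gene Edn1 rose from 1271 ± 119 to 1700.1 ± 112 (0.42 ± 0.11).

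Leukocyte adhesion receptors and chemokines split, and 13 of the 32 members tested rose and 5 fell (median 0.24), against 17.7% and 18.9% over all genes. Sele, the endothelial selectin, read 2041, 2007, 2485 and 1956 in the K2KO libraries and 5399, 5589, 5955 and 5391 in the DKO-labelled libraries (1.40 ± 0.15, adjusted p = 4.41e-07 by limma), and Icam1, an integrin ligand for leukocytes, 11076, 11415, 12941 and 10463 in the K2KO libraries and 4046, 4358, 4191 and 3828 in the DKO-labelled libraries (-1.48 ± 0.17, adjusted p = 1.003e-06). Sele and Icam1 therefore parted, with all 4 DKO-labelled libraries above every K2KO library for Sele and below every one for Icam1. Vcam1, another integrin ligand, was 6113 ± 262 and 5926 ± 494 (-0.05 ± 0.09, adjusted p = 0.735). Ccl2, a monocyte chemoattractant, rose from 299 ± 58.5 to 1061 ± 349 (1.79 ± 0.22), the cytokine Lif from 20.4 ± 7.24 to 143 ± 29.5 (2.79 ± 0.31), and Cxcl12, a chemokine made by endothelium, fell from 47626 ± 1277 to 23871 ± 3449 (-1.01 ± 0.11). Of 18 macrophage markers 3 rose and 1 fell, with Itgam and Mrc1 higher (1.11 ± 0.24 and 0.63 ± 0.19) and Cd68 lower (-0.91 ± 0.15). The Mrc1 call was lost without DKO-labelled library 4 (0.43, adjusted p = 0.0516 by limma). The macrophage markers' summed level was 8197 to 10076 in K2KO and 8635 to 14082 in the DKO-labelled libraries. Among interferon response genes 2 of the 35 members tested rose and 12 fell (median -0.25, and 0.03 under same-median scaling, where 9 rose and 5 fell), led by the guanylate-binding protein genes Gbp4 and Gbp5 (-1.57 ± 0.21 and -1.22 ± 0.19), Oas2 (-1.36 ± 0.17) and the transcription factor Irf1 (-1.18 ± 0.16).

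Immediate early genes, which respond within minutes to stimuli and to cell handling, were mostly lower, and 3 of the 28 members tested rose and 20 fell (median -0.86). Fos and Egr1 fell from 70481 ± 4015 to 39746 ± 7988 (-0.85 ± 0.20) and from 20689.6 ± 1715 to 9858 ± 1765 (-1.08 ± 0.21), Nr4a2, a nuclear receptor, from 2158 ± 69.3 to 816 ± 155 (-1.42 ± 0.21), and Ier5 from 5999.9 ± 322 to 2966 ± 330.1 (-1.02 ± 0.10). Myc was among the 3 that rose, with 267, 275, 329.5 and 242 in the K2KO libraries and 808, 1439.8, 1795 and 1006 in the DKO-labelled libraries (2.12 ± 0.24, adjusted p = 9.18e-07 by limma), as did the small GTPase gene Rhob (1.03 ± 0.15). The part of cell isolation in these values was not tested. Among Krüppel-like factors 2 rose, Klf6 and Klf8, and 7 fell of 14 tested, Klf2 being counted apart. Of the 14, 3 rose and 4 fell under scaling to the same median. Klf6 read 18646, 23288, 18983 and 23550.3 in the K2KO libraries and 44479.6, 66588, 87896 and 54012 in the DKO-labelled libraries (1.54 ± 0.19, adjusted p = 2.39e-06), and Klf3, Klf10 and Klf12 fell by 0.67 ± 0.09, 0.55 ± 0.09 and 0.81 ± 0.11 on the log2 scale. The Klf10 call was lost with libraries scaled to the same median. Of 17 genes of the MEKK3 to MEF2 pathway and the CCM complex, which act upstream of these factors, 5 rose and 4 fell (3 and 6 with quantile normalisation). Such counts were common among well-expressed genes, with 1528 rises and 1641 falls of 6152 between 100 and 1000 scaled counts. They are therefore not read as a change of the pathway. Map3k3, which encodes MEKK3, and Pdcd10, which encodes CCM3, rose (0.54 ± 0.09 and 0.61 ± 0.09), while the CCM partners Heg1 and Ccm2l fell (-0.76 ± 0.10 and -1.02 ± 0.13). In ERK feedback 7 of 16 rose and 3 fell, with Etv4 at 2.69 ± 0.26, Spred3 at 1.81 ± 0.14 and Spred2 at -0.63 ± 0.08.

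For Notch and arterial genes 4 of the 28 members tested rose and 13 fell (median -0.36), against 17.7% and 18.9% over all genes. Under scaling to the same median 8 rose and 10 fell. Dll1, a Notch ligand, read 1426, 1358, 1571 and 1430.1 in the K2KO libraries and 578, 438, 352 and 441 in the DKO-labelled libraries (-1.70 ± 0.13, adjusted p = 1.56e-08 by limma), and the Notch target Hey2 fell from 449.9 ± 51.8 to 195 ± 31.3 (-1.21 ± 0.12). Dll4, the main arterial ligand, was 7255 ± 379 and 7619 ± 1183 (0.06 ± 0.15, adjusted p = 0.802), and the arterial connexin Gja5 2256 ± 234 and 1905 ± 297 (-0.25 ± 0.12, adjusted p = 0.117), neither of them called. Gja5 was called lower by limma with quantile normalisation (-0.38, adjusted p = 0.0153) and without DKO-labelled library 2 (-0.35, adjusted p = 0.0257), and its sign turned under scaling to the same median (0.025). Stmn2, a microtubule regulator, and Fbln5, of elastic fibres, fell from 1126 ± 48.7 to 262 ± 102 (-2.18 ± 0.20) and from 4223 ± 404 to 1337 ± 254 (-1.67 ± 0.12). In the venous list 3 of 16 rose and 6 fell, whereas 4 rose and 1 fell under that scaling. It holds Nrp2, a VEGFC and semaphorin coreceptor, at 0.50 ± 0.09, and Vwf, von Willebrand factor, at -0.74 ± 0.18. The falls of Vwf and of Emcn (-0.39 ± 0.09), a sialomucin of veins and capillaries, were not called with libraries scaled to the same median, and neither was that of Fzd6 (-0.43 ± 0.08), a Wnt receptor.

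Of 29 Wnt genes 0 were called higher and 13 lower, against 17.7% and 18.9% over all genes, with a median of -0.43. Under scaling to the same median 6 rose and 6 fell, with a median of -0.16. The feedback target Axin2 read 121, 116, 131 and 113 in the K2KO libraries and 51, 25.9, 38.4 and 46.7 in the DKO-labelled libraries (-1.59 ± 0.22, adjusted p = 1.43e-05 by limma), Nkd1, another feedback inhibitor, fell from 239 ± 23.7 to 86.3 ± 15 (-1.47 ± 0.15), and the ligand Wnt2 from 31.5 ± 10.3 to 8.97 ± 5.56 (-1.83 ± 0.34). In TGF-beta, activin and BMP signalling 13 of the 37 members tested rose and 15 fell, and the median of -0.19 turned to 0.08 under that scaling, where 17 rose and 10 fell. Ligands were among the rises, with Bmp2 going from 166 ± 10.3 to 539.7 ± 41.3 (1.69 ± 0.12) beside Inhbb, and so was Fstl1, a follistatin-like protein (1.32 ± 0.08). Acvrl1, the BMP9 receptor ALK1, fell from 5801 ± 589 to 2310.3 ± 228 (-1.33 ± 0.17), the BMP target Id1 from 5616 ± 1609 to 1543 ± 113 (-1.82 ± 0.18), and the signal transducer Smad9 from 174 ± 27.2 to 33.8 ± 14.2 (-2.40 ± 0.24). Guidance genes split 7 higher and 9 lower of 31, against 12 and 7 under that scaling. Sema3a rose from 303 ± 7.89 to 807 ± 111 (1.40 ± 0.13) and Robo2 fell from 580.0 ± 120.0 to 129 ± 60.6 (-2.29 ± 0.28). In the aryl hydrocarbon receptor battery 5 of 11 fell and 1 rose. The receptor gene Ahr itself read 2988, 3937, 3563 and 3718 in the K2KO libraries and 1202, 725, 592 and 818 in the DKO-labelled libraries (-2.13 ± 0.16, adjusted p = 1.25e-08), and Nqo1, a quinone reductase, fell from 293 ± 16.7 to 134 ± 21.9 (-1.14 ± 0.13).

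In the proteasome, unfolded protein response, glycolysis and hypoxia lists more genes rose than fell. Counts here and in the next paragraph, like those above, stand beside a wider pattern by level. Of 5436 genes over 1000 scaled counts 2279 rose and 977 fell, and of 6152 between 100 and 1000 scaled counts 1528 rose and 1641 fell. In the proteasome 30 of the 31 members tested rose and 0 fell (median 0.66). The ATPase subunit Psmc4 read 1685, 1524, 1790.4 and 1839 in the K2KO libraries and 3485, 3947, 4219 and 4005 in the DKO-labelled libraries (1.19 ± 0.10, adjusted p = 3.07e-08 by limma), and Psmd14, Psmb7 and Psmd2 rose by 1.18 ± 0.09, 0.88 ± 0.08 and 0.79 ± 0.07. Of unfolded protein response genes 15 of the 19 members tested rose and 1 fell (median 0.60), with the transcription factor Xbp1 at 0.80 ± 0.07, Manf from 1185 ± 85 to 2360.2 ± 105, Edem1 at 1.03 ± 0.08 and Pdia6 at 0.88 ± 0.08. Glycolysis and glucose uptake counted 13 of 21 higher and 4 lower (median 0.56). Pkm, pyruvate kinase, read 4632, 4187, 5027 and 4734 in the K2KO libraries and 9407, 14049, 14806 and 11454 in the DKO-labelled libraries (1.40 ± 0.15, adjusted p = 5.35e-07), and Slc2a1, the glucose transporter GLUT1, rose from 506 ± 59.3 to 1564 ± 401 (1.60 ± 0.18). Pgk1 and Eno1 also rose (1.95 ± 0.17 and 1.12 ± 0.13), and both have processed copies among which reads may be split. In hypoxia response 10 of 19 rose and 4 fell, Hif1a itself going from 5801 ± 447 to 13107 ± 718 (1.18 ± 0.08) and its target Egln3 from 212 ± 46.1 to 992 ± 234 (2.21 ± 0.17).

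In the amino acid response 9 of 21 rose and 4 fell, with the amino acid transporter Slc7a5 going from 539 ± 59.3 to 2503 ± 669 (2.18 ± 0.18) and Mthfd2, of mitochondrial folate metabolism, at 2.10 ± 0.24. Cholesterol synthesis and LXR genes counted 13 higher and 2 lower of 28. Sqle, squalene epoxidase, rose from 202 ± 35.2 to 726 ± 90.6 (1.85 ± 0.16), while Pltp, phospholipid transfer protein, read 1682, 1678, 1907 and 1567 in the K2KO libraries and 418, 169, 162 and 164 in the DKO-labelled libraries (-3.03 ± 0.25, adjusted p = 2.73e-08 by limma), with library 2 the highest of the DKO-labelled group. In the NRF2 antioxidant list 12 of 25 rose and 3 fell, Txnrd1 and Gsr being higher (0.71 ± 0.08 and 0.63 ± 0.07), Gstm1 lower (-1.15 ± 0.12) and Hmox1, heme oxygenase 1, higher (from 533 ± 72.8 to 1088 ± 287). Fatty acid uptake genes of cardiac capillaries split 10 higher and 7 lower of 23. Angptl4, an inhibitor of lipoprotein lipase, read 894, 1467, 1927 and 996 in the K2KO libraries and 3609, 10511, 13672 and 6417 in the DKO-labelled libraries (2.59 ± 0.35, adjusted p = 7.33e-06), and Fabp5 rose from 2574 ± 214 to 6428 ± 902 (1.31 ± 0.12). Slc27a1, a fatty acid transporter, and Ppara, a nuclear receptor, fell from 762 ± 267 to 109.8 ± 25.4 (-2.74 ± 0.29) and from 146 ± 17.2 to 34.8 ± 13 (-2.09 ± 0.24). Both are also abundant in heart muscle cells, whose markers were lower as given above. Of 13 mitochondrially encoded protein genes 7 passed the filter on low values, and 5 of these fell, with mt-Nd2 going from 35384 ± 1403 to 20414 ± 2922 (-0.80 ± 0.12). In YAP-TAZ genes 6 of 21 rose and 4 fell (5 and 7 with quantile normalisation), Ctgf going from 1563 ± 238 to 7994 ± 2297 (2.32 ± 0.16). For sphingosine 1-phosphate genes 2 of 13 rose and 2 fell, the receptor S1pr4 at -2.61 ± 0.34 and the phosphatase Ppap2b at -1.06 ± 0.09.

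**Figure D4:**
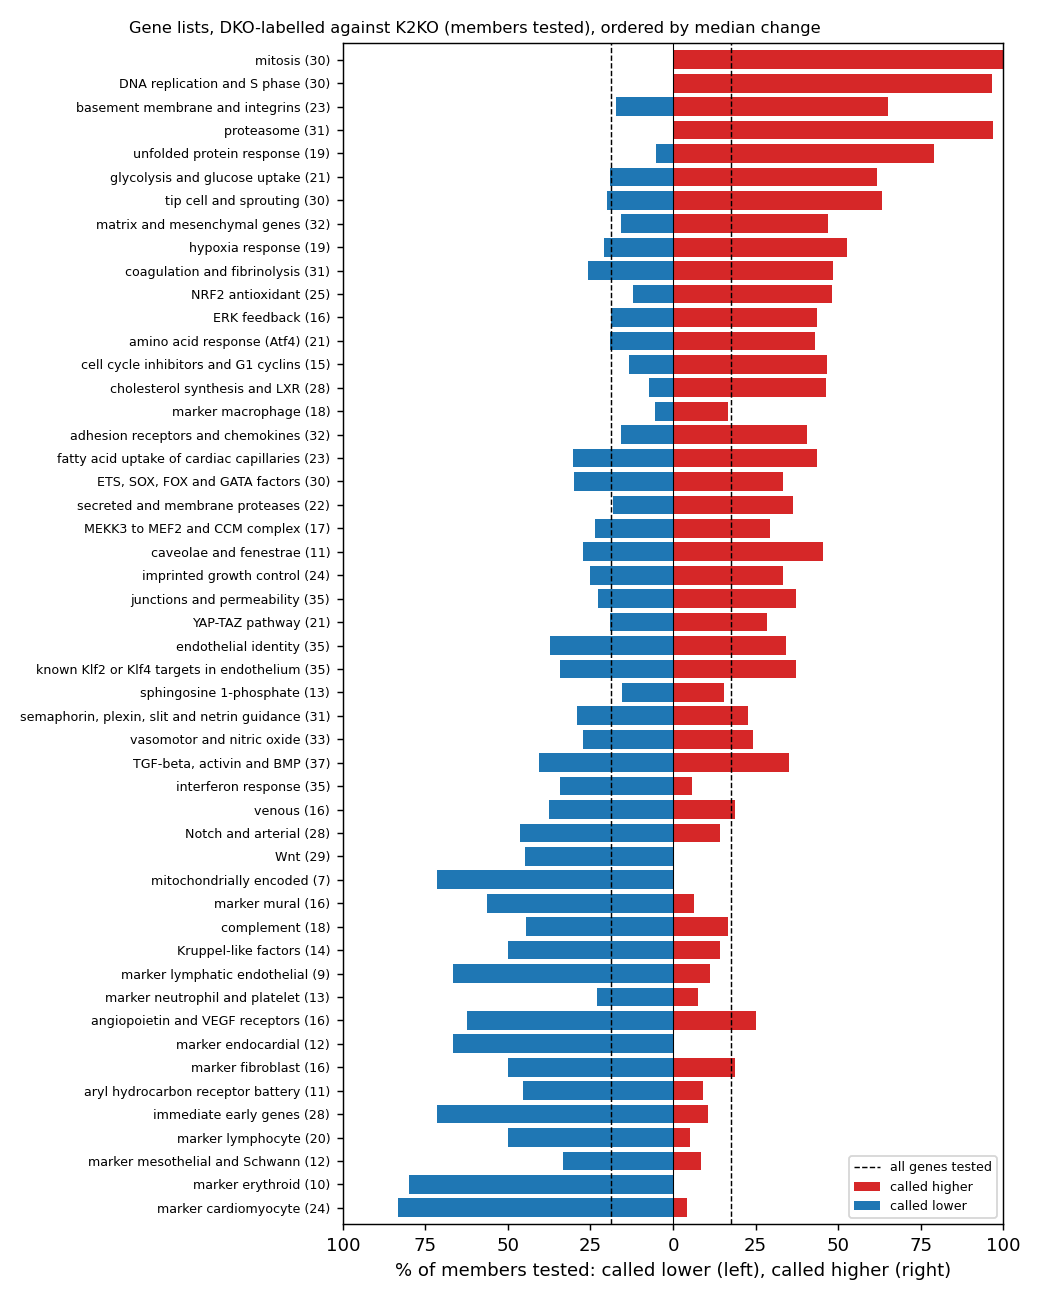
Share of the tested members of each of 50 gene lists called higher (right, %) and called lower (left, %), with the shares over all genes tested as dashed lines (17.7% and 18.9%). Mitosis, S phase and proteasome lie at the higher end, and cardiomyocyte and erythroid markers at the lower end. Same-median scaling moves all genes up, from a median of -0.11 to 0.12, and turns the medians of lists close to 0.

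Markers of cells other than capillary endothelium were described beside these results, where the shares over all genes were 17.7% higher and 18.9% lower. Cardiomyocyte markers had a median of -1.60, with Mybpc3 falling from 6662 ± 1579 to 1258 ± 245 (-2.39 ± 0.21), Pln from 7465 ± 828 to 1964 ± 429.8 (-1.94 ± 0.17) and Myl2 from 5008 ± 980.3 to 1485 ± 280.4 (-1.75 ± 0.13). Of 10 erythroid markers 8 fell and 0 rose, with a summed level of 12993 to 23951 in K2KO and 4563 to 7562 in the DKO-labelled libraries, among them Hbb-bs, a haemoglobin gene with a near-identical copy (-1.62 ± 0.19), and Alas2 (-1.61 ± 0.20). The smooth muscle myosin Myh11 and Notch3 fell from 12345 ± 1800.2 to 4489 ± 548 (-1.46 ± 0.16) and from 7273 ± 1189 to 3497 ± 341 (-1.05 ± 0.17). Fibroblast genes Pi16 and Pdgfra fell (-1.88 ± 0.17 and -1.16 ± 0.14), and of 20 lymphocyte markers 10 fell and 1 rose, with Ighm at -1.16 ± 0.13. Lymphocyte markers summed to 1467 to 1938 in K2KO against 799.8 to 925 in the DKO-labelled libraries. Of 12 endocardial markers 8 fell, and their sum was 34353 to 45860.0 in K2KO and 20995 to 30299 in the DKO-labelled libraries. Of 9 lymphatic endothelial markers 6 fell and 1 rose (1 and 2 under scaling to the same median), with sums of 14030.2 to 15839 and 13518 to 16218. Of 12 mesothelial and Schwann cell markers 4 fell, and 1 rose, which was Wt1 (0.99 ± 0.13), with sums of 1720.5 to 1919 and 2639 to 4299. Of 13 neutrophil and platelet markers 3 fell, and 1 rose, which was Itgb3 (2.49 ± 0.18), also an integrin of growing endothelium, with sums of 1346 to 1640.2 and 2391 to 4501. The part of such cells in the results was not tested.

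Genes already called in K2KO against control did not move in 1 direction. That comparison called 40 genes (0.168%), and it shares the K2KO libraries with the present one, so the values are set side by side without a test. Of the 33 genes higher in K2KO than in control 8 were higher again in the DKO-labelled libraries, 13 were lower and 12 were not called. The shares over all genes were 17.7% higher and 18.9% lower. Because the 33 were picked for being high in K2KO, a fall from K2KO is partly built in. For genes picked as low in K2KO a rise is partly built in likewise. Sele went from 1200.3 ± 364 in controls to 2122 ± 244 and 5584 ± 264, Npnt, a basement membrane protein, from 137 ± 44.1 to 299.9 ± 43.1 and 648 ± 104, and Mapk6, encoding ERK3, from 1918 ± 126 to 2883 ± 221 and 4466 ± 257. Icam1 went from 6206 ± 2157 to 11474 ± 1054 and then 4106 ± 225, Hes1, a Notch target, from 2691 ± 400.3 to 4371 ± 505 and 2100.3 ± 224, and Gadd45b, a stress gene, from 1519 ± 413 to 2708 ± 314 and 1031 ± 173. Adamts4, a metalloprotease that cleaves aggrecan, was 609 ± 375, 1947 ± 292 and 3249.6 ± 888, its log2 change of 0.71 ± 0.30 missing the threshold (adjusted p = 0.0701 by limma) although all 4 DKO-labelled libraries lay above K2KO. It was called higher under scaling to the same median (adjusted p = 0.00809), with the 8 libraries alone (0.0044), and without control 3 (0.0155), K4KO library 1 (0.0431) or DKO-labelled library 2 (0.0485). These are limma values. Csf3, a growth factor of granulocytes, missed it as well (-0.93 ± 0.38, adjusted p = 0.0607). It was called lower by edgeR (adjusted p = 0.00806) and by limma with the 8 libraries alone (0.0159) and without control 3 (0.0482), K2KO library 5 (0.0391) or K4KO library 1 (0.0244). The threshold was also missed by Selp (-0.25 ± 0.14, adjusted p = 0.205) and the pseudogene Tdpx-ps1 (0.49 ± 0.47, adjusted p = 0.461), which had 0 reads in controls. Of the 7 genes lower in K2KO (0.0294% of those tested), 2 were higher, Klf2 and Man2b1 (0.29 ± 0.10, adjusted p = 0.0366), and 2 were lower, the alarmin Il33 (-0.75 ± 0.16) and the costimulatory ligand Icosl (-0.58 ± 0.10). The Man2b1 call was lost on leaving out 6 of the 8 libraries in turn.

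K4KO against control is the same nominal difference, the loss of Klf4, on a background that kept Klf2, and it shares no library with the DKO-labelled against K2KO comparison. It called 15 genes (0.063%), 7 higher (0.0294%) and 8 lower (0.0336%). Of these 15, 11 were also called between the DKO-labelled and K2KO libraries (73.3% of the 15 and 0.126% of the 8717). Over all genes tested the share called was 36.6%. It was larger among well-expressed genes, with 1528 rises and 1641 falls of 6152 genes between 100 and 1000 scaled counts. In 10 of them the sign was the same, among them Sele, Ramp3, Ankrd33b, Pi16, Tmem56 and Fez1. AI464131 had the opposite one. Ankrd33b changed by -0.67 ± 0.11, adjusted p = 0.0244 in K4KO against control and by -1.69 ± 0.11, adjusted p = 1.79e-09 between the DKO-labelled and K2KO libraries (limma). The contrast of the 2 differences called 6352 genes (26.7%), with 3060 higher and 3292 lower. Of the 8717 genes called between the DKO-labelled and K2KO libraries, 5939 were also called in this contrast with the same sign (68.1%). Because the contrast holds the difference between the DKO-labelled and K2KO libraries itself, part of that overlap is built in. Over 11588 genes with a higher group mean of at least 100, the SD of the log2 change across genes was 0.763 between the DKO-labelled and K2KO libraries and 0.185 between K4KO and control, with a Pearson correlation of 0.0471 between both as a description across genes, which share libraries and are not independent. Without K2KO library 2 and K4KO library 1 the contrast called 5217 genes.

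Tnc stood at 299 ± 45 in controls, 299 ± 22.4 in K4KO, 337 ± 38.6 in K2KO and 11078 ± 1482 in the DKO-labelled libraries, an interaction of 5.02 ± 0.17, adjusted p = 8.20e-13 (limma). For Clic6 the interaction was 6.79 ± 0.83 and for Arg1 4.71 ± 0.92, with K4KO means of 1.43 ± 2.06 and 3.19 ± 2.97. On the lower side Slc26a10 averaged 6451 ± 1549, 4359 ± 1228, 4751 ± 379 and 301 ± 287 in that order, an interaction of -4.11 ± 0.80, adjusted p = 7.74e-04. Cytl1 (-3.83 ± 0.58), Mhrt (-3.79 ± 0.60) and Clmn (-3.75 ± 0.48) were the next lowest. Sele was higher in K4KO than in control by 0.80 ± 0.15, adjusted p = 0.0463, and its interaction was 0.60 ± 0.21, adjusted p = 0.0371. Stmn2 averaged 1095 ± 195 in controls and 548 ± 87.7 in K4KO, a change of -0.99 ± 0.20, adjusted p = 0.0962 that was not called, with an interaction of -1.19 ± 0.28, adjusted p = 0.0039. For Klf2 the interaction was 1.03 ± 0.23, adjusted p = 0.00237, and for Klf4 0.36 ± 0.21, adjusted p = 0.225.

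**Figure D5:**
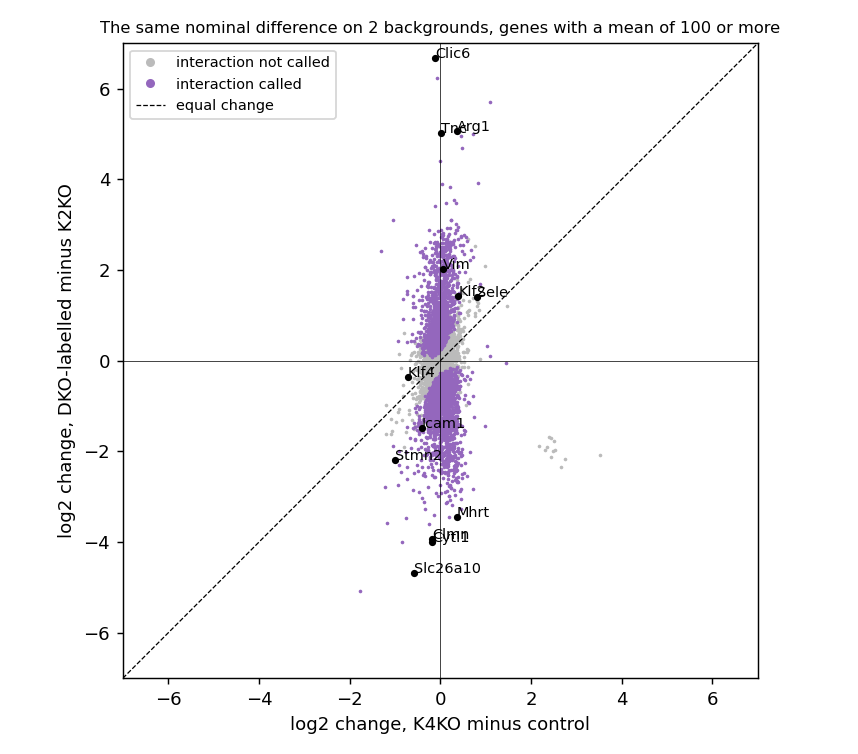
Log2 change between the DKO-labelled and K2KO libraries against that between K4KO and control, for genes with a higher group mean of at least 100, with the line of equal change dashed. The points spread along the vertical axis (SD 0.763) far more than along the horizontal one (SD 0.185), and the group of points on the right holds gene models such as Gm10800 that were high in K2KO library 2 and K4KO library 1.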

How the data were processed

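RNA of cardiac microvascular endothelial cells was sequenced in 16 libraries. Per the submitters' processing notes TopHat and Cuffdiff were used with the build GRCm38; the sources used here state neither versions nor the counting tool and its strand setting. The kit was stranded per the labels' protocols. The deposited signal values are gene counts that the authors divided by 1 factor per library: 100% of them came out as whole reads within 0.001 reads. K2KO and DKO columns are numbered 2 to 5 and the labels 1 to 4, so these columns were assigned to their group only. Differences were fitted with limma 3.58.1 (R 4.3.3) on log2(value + 1) over all 16 libraries, for the 23816 genes that reached 1 in 4 or more libraries, with Benjamini-Hochberg adjustment over all of them; the fits were tested on simulated data. The added 1 makes fold changes of low genes too small. On the recovered reads edgeR 4.0.16 called 8762 of 15694 genes and DESeq2 1.42.0 9142 of 35324. The members and gene lists were chosen with earlier results of these data known. Genes were named by a rule: Klf2 and Klf4, the 10 largest rises and 10 largest falls without overlap of the groups, the 6 largest rises and falls in level, the 5 highest and lowest genes of K2KO against control, the 4 highest and lowest of the contrast of differences, and up to 4 members of each list with the smallest p. Other genes, among them genes on the chromosomes of Klf2 and Klf4, Nos3, Ass1, Id1, Kdr, Flt1, Cldn5, Vcam1, Dll4, Gja5 and further well-known list members, were added after their values were seen. Some genes that the rule takes are not reported here. Intervals on reads cover counting error only.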

Additional observations from a re-analysis of the deposited data

Results flagged for a closer look

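Within a group, 1 library lay far from the other 3 in 27 of 450 groups of values examined, by Dixon's criterion, where chance gives about 1 in 20. DKO-labelled library 4 had 106 M reads against 25.3 to 29.3 M in the others. K2KO library 2 had 27293 genes with a read after thinning, against 20690.0 to 21204 in the others, and a summed lymphocyte marker level of 1938 against 1467 to 1546. The following are scaled counts, with those of the other 3 libraries of the group after each. DKO-labelled library 2 was the highest for Pltp (418 against 162 to 169), Nkd1 (109 against 77.1 to 81.8), Gucy1a3 (2869 against 2182 to 2231), Kcnn3 (70.9 against 40.8 to 43.5), Acvrl1 (2649 against 2153 to 2231) and Nog (3.33 against 0 to 0.305). DKO-labelled library 2 was the lowest for Pgk1 (381 against 501 to 525). DKO-labelled library 4 was the lowest for Arsi (295 against 429.7 to 451) and Gpc4 (803 against 870.2 to 883). DKO-labelled library 5 was the lowest for Ier5 (2475 against 3079.7 to 3179) and Nr4a2 (584 against 876 to 903). K2KO library 2 was the highest for Procr (413 against 351 to 357), Sema3a (315 against 298 to 300.4), Myl2 (6465 against 4359 to 4675) and Ighm (651 against 487 to 498). K2KO library 2 was the lowest for Gucy1a3 (5529 against 6033 to 6129) and Wt1 (1432 against 1598 to 1630.2). K2KO library 3 was the highest for Nqo1 (318 against 283 to 288). K2KO library 3 was the lowest for Pi16 (529 against 779.8 to 794). K2KO library 4 was the highest for Sele (2485 against 1956 to 2041) and Gm4951 (129 against 13 to 30). K2KO library 4 was the lowest for Robo2 (401 against 626 to 660.0). K2KO library 5 was the highest for Mcm6 (2193 against 1977 to 2011) and Stmn2 (1199 against 1099.6 to 1106).

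The change between the DKO-labelled and K2KO libraries differed from that between K4KO and control for 6352 genes by limma's test of the contrast. Among the named genes the contrast was 6.79 for Clic6, 5.02 for Tnc, 4.71 for Arg1, -4.11 for Slc26a10, -3.83 for Cytl1, -3.79 for Mhrt and -3.75 for Clmn, on the log2 scale.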

How the results depend on the processing

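Over all alternatives other than a fold threshold, 6854 to 10516 genes were called. The numbers tested differed, so these counts are not like for like. The lowest was of 11588 genes with a higher group mean of at least 100, and the highest of 23816 with library quality weights. With at least 2-fold asked, 3324 were called, 974 higher and 2350 lower, with 3046 in the contrast of differences, 8 near Klf2 and 2 near Klf4. Scaling to the same median gave 6897 higher and 2926 lower. Only genes with a higher group mean of at least 100, an alternative chosen after seeing the data, gave 2769 lower and 2 near Klf4, of 2 tested there. The log2 change of Klf4 became called with quantile normalisation (-0.52) and with the 8 libraries alone (-0.35, and -0.35 with the replicate block described at the end). Under scaling to the same median that of Klf4 was -0.07 and not called. Leaving out 1 library at a time gave 7629 to 9331 genes called, 3747 to 4551 higher, 3854 to 4780 lower, 5361 to 6834 in the contrast, 19 to 27 near Klf2, 3 to 4 near Klf4, 1.32 to 1.52 for Klf2 and -0.46 to -0.27 for Klf4. Signs turned with quantile normalisation for Fam32a (-0.045), Mri1 (0.11), mt-Rnr1 (0.26), Dll4 (-0.12), Tmem182 (-0.0070) and the medians of junctions (-0.041), caveolae (-0.074) and sphingosine 1-phosphate genes (0.061). They turned under scaling to the same median for Mri1 (0.19), Selp (0.028), Vcam1 (0.23), Gja5 (0.025) and the medians of vasomotor (0.097), venous (0.0017), TGF-beta (0.084), endothelial identity (0.23), guidance (0.11), known target (0.21), interferon (0.029), YAP-TAZ (0.25) and sphingosine 1-phosphate genes (0.19). They turned without DKO-labelled library 4 for Mri1 (0.021) and Tmem182 (-0.015), without DKO-labelled library 3 for Dll4 (-0.014), without DKO-labelled library 5 and without K2KO library 2 for the median of sphingosine 1-phosphate (0.0058 and 0.023), without K2KO library 5 for the median of endothelial identity (0.012), and without K2KO library 4 for Gm4951 (0.24) and the median of imprinted growth control (-0.013). Over all single libraries left out, these ranged over -0.16 to 0.021 for Mri1, -0.015 to 0.21 for Tmem182, -0.014 to 0.13 for Dll4, -0.83 to 0.24 for Gm4951 and -0.013 to 0.17 for the median of imprinted growth control. The cause was not tested. Over 207 genes and 23 alternatives, 35 further values lost their call and 25 gained one. The K2KO and DKO columns share the numbers 2 to 5, and a replicate block on these numbers among the 8 libraries, chosen after seeing the data, called 9885 genes, 4838 higher and 5047 lower, against 9801 with the 8 libraries and no block. The deviations from the group means of same-numbered libraries correlated at 0.0241 to 0.395 across 11235 genes, above 0.1 in 1 of 4 pairs, and 2 of 8 libraries correlated best with their own number, so the numbers were not taken as a pairing. With the block Klf4, Adamts4, Csf3, Selp and Nos3 were called and mt-Rnr1 was not.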

Other observations

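Complement genes, part of innate defence, were lower more often than higher. Of this list 3 of 18 rose and 8 fell (median -0.47 on the log2 scale, against -0.11 over all genes). C1ra and C1s1, proteases of the classical pathway, changed by -1.14 ± 0.13 and -0.78 ± 0.08, and Cd46, a complement regulator, by -0.99 ± 0.14. Of ETS, SOX, FOX and GATA transcription factors 10 of 30 rose and 9 fell (median 0.20), with Elf4 at 0.50 ± 0.08 and Etv6 at 0.69 ± 0.08, both of the ETS family. With quantile normalisation 7 of these factors rose and 10 fell. Of caveolar and fenestral genes 5 of 11 rose and 3 fell, with a median of 0.15 that turned to -0.07 under quantile normalisation, and Ehd2, an ATPase at the neck of caveolae, changed by 0.72 ± 0.09.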
